A study of Mus musculus with 13 samples.

Results

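Lysosomal hydrolases and membrane proteins were followed through 30 transcripts of 36287 genes listed in the deposited table. They were chosen by a list of gene names that uses no measured value as a criterion. The list was made with earlier results of these data known. The members are 10 glycosidases, 3 sulfatases, 6 lipid hydrolases and their activator, 2 proteases, 2 sterol transporters and 7 proteins of the lysosomal membrane. Cathepsins were not among them. Each member matched 1 row of the table, and all 30 were among the 22065 genes tested. The samples are bulk mRNA libraries from hippocampus of 5xFAD mice given saline (4 libraries, animals 18, 19, 32 and 38), Aducanumab (4 libraries, animals 24, 50, 56 and 58) or ACLP-NT (5 libraries, animals 17, 27, 49, 53 and 55). All 3 groups carry the 5xFAD transgenes, human genes with familial Alzheimer's disease mutations, which the Thy1 promoter drives in neurons. Aducanumab is an antibody to aggregated amyloid beta. ACLP-NT is a code name for a nanomedicine whose stated target, per the series title, is lysosomal homeostasis of microglia. The age and sex of the mice, the doses, the treatment times and any batch are not stated in the labels, and no wild-type mice were analysed here. Saline-treated 5xFAD mice are therefore the background for every value.

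Lysosomes are acidic compartments in which hydrolases take apart glycans, lipids and proteins delivered by endocytosis, phagocytosis and autophagy. Most of the enzymes are tagged with mannose 6-phosphate and carried to the lysosome by receptors, while heavily glycosylated membrane proteins line the inner face of its membrane and transporters release the products. In the brain, microglia and the macrophages at its borders hold many lysosomes, and all other cells, neurons included, depend on the same enzymes. In humans, inherited loss of many of these proteins causes a storage disease. The factor TFEB, active when the lysosome is stressed or nutrients are short, binds an extended E-box in the promoters of many lysosomal genes.

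The windows that hold this motif are shown because it is the sequence through which the TFEB family is known to act on lysosomal genes. The letters TCACGTG were searched on both strands in RefSeq promoters (build GRCm38.p6) that run from 250 bases before to 50 bases after the gene start. Of the 30 members, 27 had a promoter in that set, and 7 of these (25.9%) held the letters, against 4.29% of 27025 genes with a promoter. The shorter core CACGTG, which lies inside TCACGTG and so overlaps it, was present in the same 7 members and in 8.09% of all genes. The windows are shown with 14 bases on either side, on the strand of the gene and with the motif in capitals. Lamp1 held 4 cores, between 61 and 15 bases before its start, and each of the other 6 held 1 or 2 cores.
Lamp1 (chr8:13159085-13159165, plus strand): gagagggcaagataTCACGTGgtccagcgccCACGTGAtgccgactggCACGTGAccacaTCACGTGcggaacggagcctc
Glb1 (chr9:114401015-114401049, plus strand): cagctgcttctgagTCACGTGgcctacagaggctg
Naglu (chr11:101070006-101070040, plus strand): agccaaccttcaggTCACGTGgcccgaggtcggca
Gaa (chr11:119267808-119267842, plus strand): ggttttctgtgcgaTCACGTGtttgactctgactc
Lgmn (chr12:102439122-102439156, minus strand): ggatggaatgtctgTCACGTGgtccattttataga
Arsa (chr15:89477421-89477455, minus strand): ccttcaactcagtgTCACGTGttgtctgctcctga
Gla (chrX:134601179-134601247, minus strand): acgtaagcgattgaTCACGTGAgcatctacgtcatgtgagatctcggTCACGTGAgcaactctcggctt
A match is a run of letters and no measured binding site, and no match says only that the letters are not in this window.

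Depth was similar over the libraries, with total counts from 53642019 to 69734713, of which the 30 members took 0.239% to 0.31%. The 8 markers of hippocampal subfields were all detected and summed to 498 to 637 CPM (counts scaled to library size) in the saline libraries, 564 to 672 with Aducanumab and 576 to 701 with ACLP-NT. Of 12 microglia markers, 11 were tested and none was at 0 in any library. Their summed level was 677 to 777 CPM for saline, 560 to 650 for Aducanumab and 500 to 673 for ACLP-NT, so the saline libraries lay above every treated library. The 8 markers of plaque-associated microglia summed to 323 to 425, 269 to 365 and 215 to 340 CPM in the same order. Choroid plexus, an epithelium next to the hippocampus, varied far more and within every group: its 12 markers summed to 254 to 7813 CPM for saline, 293 to 8119 for Aducanumab and 294 to 7769 for ACLP-NT. Aducanumab 58 stood apart with the highest scores for border macrophages (1.22), meningeal fibroblasts (1.35) and blood (1.12), each the mean log2 CPM of the markers around their mean over libraries. In bulk RNA, fewer cells of a type and less RNA per cell cannot be told apart.

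The members were abundant. Levels between genes are given in FPKM, which divides by gene length. The median of the members' mean FPKM was 14.4, against 2.34 over all genes tested, and 29 of 30 members lay above the latter. The most abundant was Lamp1, the major glycoprotein of the lysosomal membrane, at 121 ± 10.6 FPKM (SD, n = 13), followed by Laptm4a, a small membrane protein of late endosomes and lysosomes, at 106 ± 9.95, and Gaa, the acid glucosidase that degrades glycogen, at 65.3 ± 4.09. Lgmn and Hexa followed at 50.9 ± 5.81 and 44.9 ± 7.44 FPKM. The middle of the order ran from Laptm5 at 28.3 FPKM through Ppt1, Smpd1, Cd68, Arsb, Scarb2, Tpp1, Asah1, Cd63, Npc2, Gm2a, Neu1, Man2b1 and Lamp2 at 11.5 FPKM. Below these came Pla2g15, Arsa, Glb1, Gusb, Npc1, Naglu, Galns and Lipa, from 9.56 to 3.69 FPKM. The lowest were Gla, the galactosidase that cleaves globotriaosylceramide, at 3.29 ± 0.202 FPKM (SD, n = 13), Galc, the enzyme that breaks down the myelin lipid galactosylceramide, at 2.64 ± 0.137, and Manba, the beta-mannosidase, at 1.96 ± 0.175. Neighbours in this order mostly shared their range over libraries. Only 4 of 29 neighbouring pairs had ranges that did not meet, namely Laptm4a above Gaa, Naglu above Galns, Gla above Galc and Galc above Manba.

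**Figure D1:**
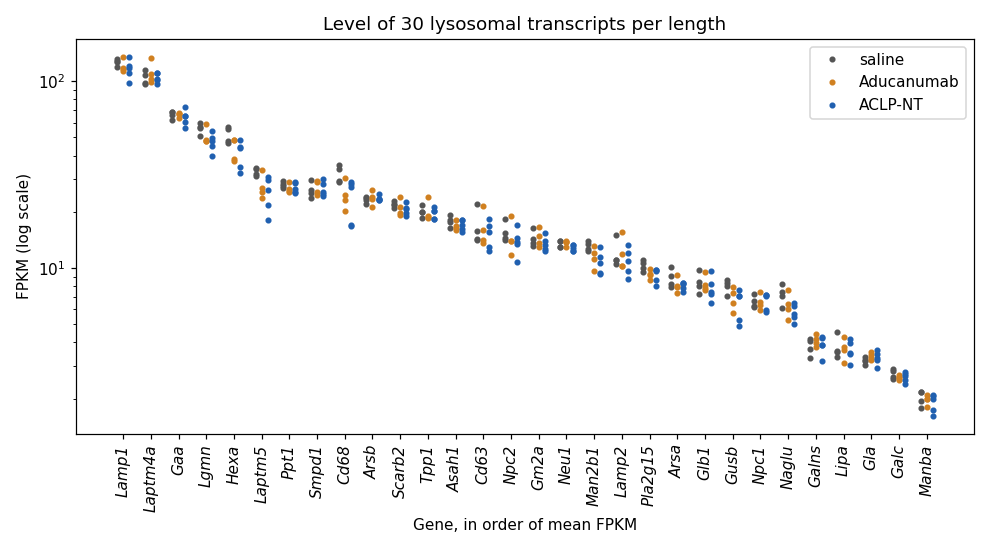
FPKM of 30 lysosomal transcripts (log axis) in 13 libraries, each point 1 library coloured by treatment, with genes in order of their mean. Lamp1 and Laptm4a lie above 96 FPKM in all libraries and Manba lies lowest, while Cd68 and Hexa show a wider scatter than Ppt1 and Neu1 at like or lower levels.

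The members differed in how far they varied between animals of 1 treatment. The pooled SD of log2 CPM within groups had a median of 0.125 over the members, against 0.0931 over the 7773 genes tested with a mean of at least 5 FPKM and 0.207 over all genes tested. Cd68, a glycoprotein of macrophage and microglial lysosomes, varied most at 0.292, followed by the tetraspanin Cd63 at 0.268, Lamp2, which also serves as receptor in chaperone-mediated autophagy, at 0.241, Laptm5, a membrane protein of blood-derived and microglial cells, at 0.228, and Npc2, which binds cholesterol in the lysosome, at 0.225. The steadiest were Neu1, the sialidase, at 0.0521 and Ppt1, which removes fatty acids from proteins, at 0.0679. Single libraries moved many members at once. ACLP-NT 27 was the lowest of the 13 libraries in 17 of 30 members, with a mean of -0.22 around each gene's own mean on the log2 scale. Saline 38 was the highest in 9 members (mean 0.17) and Aducanumab 58 in 8 (mean 0.14).

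ACLP-NT against saline asks whether the treatment changed lysosomal transcripts in hippocampus. None of the 30 members passed the adjusted threshold of 0.05, and neither did any other gene (0% of 22065). The smallest edgeR adjusted p over all genes was 0.722, and 1298 genes had an unadjusted p under 0.05. DESeq2 called 12 genes, 0 of them members, and limma on log2 FPKM called 0. Among the members, 8 had an unadjusted p under 0.05 and were lower in ACLP-NT (26.7%, against 3.43% of all genes): Cd68, Laptm5, Hexa, Gusb, Man2b1, Naglu, Lgmn and Pla2g15. No member was higher by that rule, against 2.46% of all genes. Fitted differences lay below 0 for 24 of 30 members (80%, against 50.6% of all genes), with a median log2 fold change of -0.09 over the members and -0.0015 over all genes. The count of 8 became 5 without saline 32 and 5 without ACLP-NT 27, as Cd68, Gusb and Pla2g15 left it, and the median became -0.05 without saline 38. In the same comparison all 11 microglia markers were below saline (median log2 fold change -0.29), 8 of them with an unadjusted p under 0.05. All 8 plaque-associated markers were as well (median -0.45, 5 by that rule). All 12 choroid plexus markers (median 0.76, 0 by that rule) and all 8 hippocampal subfield markers (median 0.21, 3 by that rule) were above. With the choroid plexus score as a covariate, 26 members lay below 0, with a median of -0.12, and 12 were lower by unadjusted p. The part of the microglia and subfield markers in the members' differences was not tested.

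In Aducanumab against saline the same 8 members lay below saline, each by less than in ACLP-NT. This comparison shares its 4 saline libraries with the one above, so their values are set side by side and not counted as separate evidence. No member and no other gene passed the adjusted threshold (0% of genes). The smallest edgeR adjusted p over all genes was 0.485, and 1033 genes had an unadjusted p under 0.05. DESeq2 called 19 genes and limma 0, none of them members. By unadjusted p, 1 member was lower (3.33%, against 2.62% of all genes), the lysosomal phospholipase Pla2g15, and none was higher (2.07% of all genes). That count is close to the background. It was 0 without saline 32, saline 38 or Aducanumab 56, 4 without saline 19 and 7 without Aducanumab 58. Differences lay below 0 for 20 of 30 members (66.7%, against 48.7% of all genes), with a median of -0.05 over the members and 0.0036 over all genes. The median was -0.03 without saline 38 or Aducanumab 50, -0.08 without saline 19 and -0.10 without Aducanumab 58. With the choroid plexus score as a covariate it was -0.08, with 25 members below 0. Microglia markers lay below saline, 11 of 11 with a median of -0.28, and 7 of them had an unadjusted p under 0.05. Plaque-associated markers did as well, 8 of 8 with -0.26 and 2 by that rule. Markers of choroid plexus (12 of 12, median 0.80), meningeal fibroblasts (8 of 8, median 0.30), blood (5 of 5, median 0.46) and hippocampal subfields (7 of 8, median 0.25) lay above saline. Among these, only subfield markers were called by that rule, 2 higher and 1 lower. Apart from choroid plexus, the part of all these markers was not tested.

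ACLP-NT against Aducanumab compares the treatments directly. No member and no other gene passed the adjusted threshold (0% of genes), and the smallest edgeR adjusted p was 1, with 716 genes at an unadjusted p under 0.05. DESeq2 called 3 genes and limma 0, none of them members. By unadjusted p, 0 members were lower (1.71% of all genes) and 0 were higher (1.53%). Differences lay below 0 for 26 of 30 members (86.7%, against 52.4% of all genes), but they were small, from -0.13 to 0.02, with a median of -0.06 against -0.0064 over all genes. Both values rested on single libraries: the count was 18 and the median -0.0061 without ACLP-NT 27, and they were 17 and -0.0089 without Aducanumab 58. The median was -0.09 without ACLP-NT 49. Microglia markers had a median of -0.0013 in this comparison, with 6 of 11 below 0. Plaque-associated microglia (8 of 8, median -0.13), border macrophages (6 of 6, -0.39), meningeal fibroblasts (8 of 8, -0.38), blood (5 of 5, -0.60) and oligodendrocytes (6 of 6, -0.08) had all their markers below 0. Their part in the members' values was not tested.

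**Figure D2:**
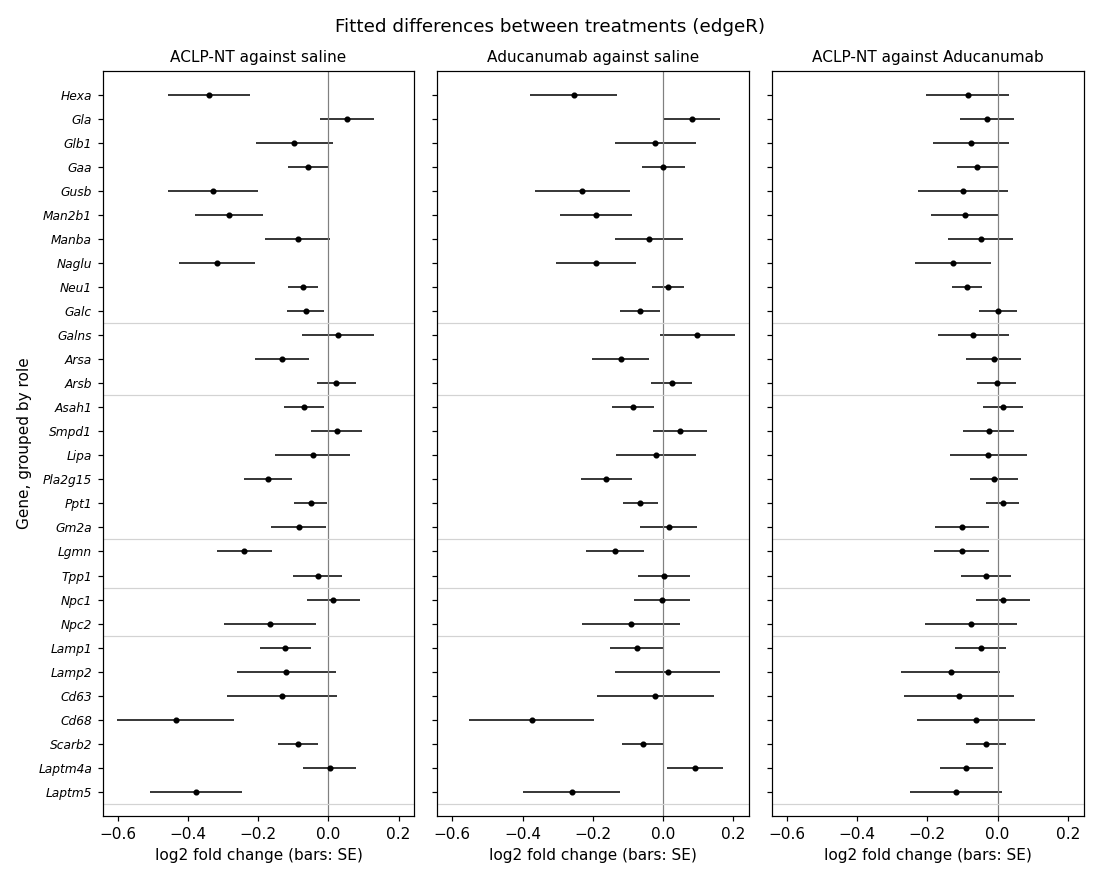
Fitted log2 fold changes of the 30 members (points) with their SE (bars) in 3 comparisons, genes grouped by role with grey lines between roles and a line at 0. In ACLP-NT against saline the 8 lowest points lie between -0.44 and -0.17 and the remaining 22 between -0.17 and 0.05, while in ACLP-NT against Aducanumab all lie between -0.13 and 0.02.

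Values per library are given in CPM after TMM scaling, in order of animal number as listed at the opening. Among the glycosidases, 9 of 10 lay below saline in ACLP-NT (50.6% of all genes) with a median of -0.09. Of these 10, 4 were lower with an unadjusted p under 0.05 (3.43% of all genes). Hexa (ENSMUSG00000025232) encodes the alpha subunit of beta-hexosaminidase, which degrades GM2 ganglioside. It measured 103, 100, 122 and 118 CPM in saline, 105, 82.4, 81.8 and 103 in Aducanumab and 95, 70.4, 103, 74.4 and 95.5 in ACLP-NT. ACLP-NT 27 and 53 lay lowest, and the groups overlapped at their edges. The saline mean was 111 ± 10.9 CPM (SD, n = 4) and the ACLP-NT mean 87.7 ± 14.5 CPM (SD, n = 5). The log2 fold change was -0.34 (SE 0.118, unadjusted p = 0.0125, edgeR adjusted p = 0.752), and it was -0.25 (SE 0.125) for Aducanumab against saline.

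Gusb (ENSMUSG00000025534), the beta-glucuronidase that acts on glycosaminoglycans, measured 39.5, 34.8, 41.2 and 42 CPM in saline, 36.2, 31.6, 28.3 and 38.3 in Aducanumab and 34.8, 26.1, 36.9, 23.9 and 35 in ACLP-NT. The same 2 ACLP-NT libraries, 27 and 53, were far below the other 3, which overlapped with saline. Its log2 fold change was -0.33 in ACLP-NT (SE 0.128, unadjusted p = 0.0225, edgeR adjusted p = 0.783) and -0.23 (SE 0.135) in Aducanumab. Man2b1 (ENSMUSG00000005142), the alpha-mannosidase of glycoprotein breakdown, measured 109, 107, 117 and 120 CPM in saline, 97.7, 83, 105 and 111 in Aducanumab and 100, 82, 110, 79.9 and 92.9 in ACLP-NT. Of the treated libraries, only Aducanumab 58 and ACLP-NT 49 reached the saline range of Man2b1. Its log2 fold change was -0.28 in ACLP-NT (SE 0.0965, unadjusted p = 0.0111, edgeR adjusted p = 0.751) and -0.19 (SE 0.102) in Aducanumab.

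Naglu (ENSMUSG00000001751), the glucosaminidase of heparan sulfate breakdown whose promoter window is shown above, measured 20.4, 17.6, 21.5 and 23.3 CPM in saline, 18.6, 15, 17.6 and 21.4 in Aducanumab and 18, 14.6, 18.5, 16.3 and 15.7 in ACLP-NT. Saline 19 lay within the ACLP-NT range and the other 3 saline libraries lay above it. Its log2 fold change was -0.32 in ACLP-NT (SE 0.109, unadjusted p = 0.0114, edgeR adjusted p = 0.752) and -0.19 (SE 0.115) in Aducanumab. The other glycosidases stayed near saline. Gaa measured 353, 355, 322 and 337 CPM in saline, 332, 348, 349 and 339 in Aducanumab and 335, 337, 368, 311 and 292 in ACLP-NT, with log2 fold changes of -0.06 (SE 0.0581) and 0.0014 (SE 0.0613). The highest and the lowest Gaa values both came from ACLP-NT libraries, and the sign of the second difference turned in several alternative fits.

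Gla measured 11.7, 10.7, 11.2 and 11.3 CPM in saline, 12.2, 11.2, 12.7 and 11.4 in Aducanumab and 11.6, 10.4, 12.1, 12.8 and 11.4 in ACLP-NT, with log2 fold changes of 0.05 (SE 0.0763) and 0.08 (SE 0.0804). Manba measured 16.4, 13.4, 16.6 and 14.6 CPM, then 15.1, 15.7, 13.7 and 14.8, then 13.1, 12.4, 15.7, 15.6 and 15, with differences of -0.09 (SE 0.0917) and -0.04 (SE 0.0968). Galc measured 41.2, 45.2, 42.3 and 45.8 CPM, then 43.6, 40.4, 42.2 and 40.5, then 43.7, 38.7, 39.5, 44.3 and 42.4, with differences of -0.06 (SE 0.0534) and -0.07 (SE 0.0563). In all 3 the groups overlapped throughout. Glb1, the acid beta-galactosidase, ran from 21.2 CPM in ACLP-NT 55 to 31.5 CPM in saline 38, and Neu1 held within 50.1 to 56.8 CPM over all libraries.

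The 3 sulfatases, which remove sulfate groups from lipids and glycosaminoglycans, had a median log2 fold change of 0.02 in ACLP-NT and 0.02 in Aducanumab, and none had an unadjusted p under 0.05. Arsa, which acts on the myelin lipid sulfatide, ran from 29.4 CPM in Aducanumab 56 to 40 CPM in saline 18. Arsb, which acts on dermatan sulfate, ran from 137 CPM in Aducanumab 50 to 171 CPM in Aducanumab 56. Galns, which acts on keratan sulfate, ran from 9.14 CPM in ACLP-NT 27 to 12.7 CPM in Aducanumab 24. The extremes of Arsb thus both came from Aducanumab.

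Among the lipid hydrolases and their activator, 5 of 6 lay below saline in ACLP-NT (50.6% of all genes) with a median of -0.06. Pla2g15 (ENSMUSG00000031903), a phospholipase that degrades phospholipids of membranes taken into the lysosome, measured 32.6, 31, 36.3 and 34.5 CPM in saline, 30.2, 30.2, 28.4 and 31.4 in Aducanumab and 31.8, 28.5, 31.4, 26 and 31.4 in ACLP-NT. Saline 19 lay within the range of both treated groups, and the other 3 saline libraries lay above it. The log2 fold change was -0.17 in ACLP-NT (SE 0.068, unadjusted p = 0.0244, edgeR adjusted p = 0.788) and -0.16 in Aducanumab (SE 0.0719, unadjusted p = 0.0416, edgeR adjusted p = 1). Asah1, the acid ceramidase, ran from 57.4 to 69.7 CPM over all libraries, Smpd1, the acid sphingomyelinase, from 85.9 to 106 CPM, and Ppt1 from 101 to 115 CPM. Lipa, the acid lipase of cholesteryl esters, ran from 22.4 CPM in ACLP-NT 27 to 32.7 CPM in saline 38, and Gm2a, the lipid-binding activator that hexosaminidase needs, from 55.2 CPM in ACLP-NT 27 to 72 CPM in Aducanumab 58.

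Both proteases lay below saline in ACLP-NT, with differences of -0.24 and -0.03. Lgmn (ENSMUSG00000021190), the asparaginyl endopeptidase that also processes cathepsins, measured 142, 127, 141 and 148 CPM in saline, 121, 119, 123 and 145 in Aducanumab and 125, 101, 133, 112 and 120 in ACLP-NT. Saline 19 lay in the treated range, Aducanumab 58 and ACLP-NT 49 in the saline range, and ACLP-NT 27 below all others. Lgmn had the smallest unadjusted p of the members, with a log2 fold change of -0.24 in ACLP-NT (SE 0.079, unadjusted p = 0.00911, edgeR adjusted p = 0.746) and -0.14 (SE 0.0835) in Aducanumab. Tpp1, a peptidase that removes tripeptides from protein ends, ran from 102 CPM in ACLP-NT 55 to 131 CPM in Aducanumab 58. Of the sterol transporters, Npc1 ran from 71.4 to 89.8 CPM with no order by treatment, and Npc2 from 64.2 CPM in ACLP-NT 27 to 109 CPM in Aducanumab 58.

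Among the membrane proteins, 6 of 7 lay below saline in ACLP-NT (50.6% of all genes) with a median of -0.12. Cd68 (ENSMUSG00000018774) measured 39.7, 39, 48.5 and 45.5 CPM in saline, 33.7, 31.4, 27.6 and 40.5 in Aducanumab and 38.1, 23.3, 38.5, 22.6 and 36.9 in ACLP-NT. Every ACLP-NT library lay below every saline library, by a narrow margin for 3 of them and by a wide one for ACLP-NT 27 and 53. The saline mean was 43.2 ± 4.61 CPM (SD, n = 4), the Aducanumab mean 33.3 ± 5.39 CPM (SD, n = 4) and the ACLP-NT mean 31.9 ± 8.18 CPM (SD, n = 5). The log2 fold change of -0.44 (SE 0.167, unadjusted p = 0.0205, edgeR adjusted p = 0.776) was the largest among the members, and Aducanumab against saline gave -0.37 (SE 0.177, unadjusted p = 0.0523, edgeR adjusted p = 1).

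Laptm5 (ENSMUSG00000028581) measured 131, 127, 141 and 137 CPM in saline, 110, 96.8, 106 and 135 in Aducanumab and 121, 74.6, 124, 89.1 and 108 in ACLP-NT. Its ACLP-NT and saline libraries did not overlap, while Aducanumab 58 lay within the saline range. The log2 fold change was -0.38 in ACLP-NT (SE 0.13, unadjusted p = 0.0118, edgeR adjusted p = 0.752) and -0.26 (SE 0.138) in Aducanumab. Cd68 and Laptm5 were the 2 members (6.67%) whose ACLP-NT libraries all lay below all saline libraries, against 1.33% of all genes, and no member lay wholly above, against 0.925%. For Aducanumab against saline no member was wholly lower (1.41% of all genes) or higher (1.16%), and for ACLP-NT against Aducanumab none was lower (0.644%) or higher (0.693%).

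Lamp1, whose promoter window holds 4 motif cores, measured 373, 345, 367 and 373 CPM in saline, 337, 336, 328 and 383 in Aducanumab and 320, 285, 382, 348 and 340 in ACLP-NT. Aducanumab 58, ACLP-NT 49 and ACLP-NT 53 lay at or above the lowest saline library, and the log2 fold changes were -0.12 (SE 0.0723, unadjusted p = 0.113) and -0.07 (SE 0.0763). Laptm4a measured 191, 194, 215 and 225 CPM, then 219, 196, 206 and 259, then 204, 203, 218, 217 and 192, with differences of 0.0033 (SE 0.0756) and 0.09 (SE 0.0797). Its first difference had no settled sign over the alternative fits. Lamp2 ran from 91.2 CPM in ACLP-NT 27 to 157 CPM in Aducanumab 58, and Cd63 from 49.7 CPM in ACLP-NT 27 to 86.9 CPM in saline 38. Scarb2, which carries the glucosylceramide-cleaving enzyme to the lysosome, ran from 129 to 159 CPM.

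**Figure D3:**
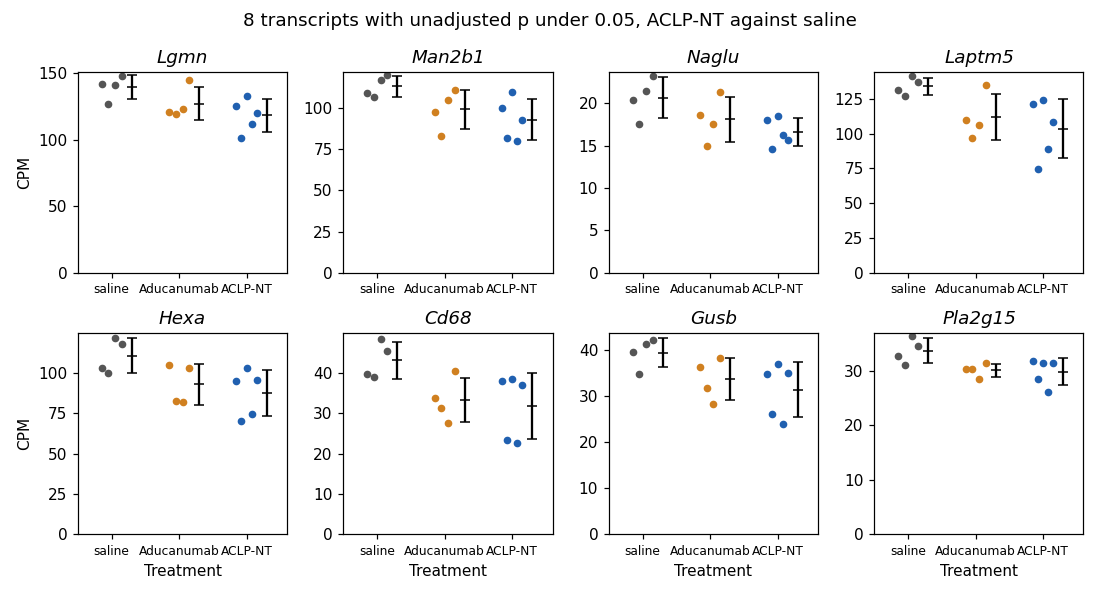
CPM of the 8 members with an unadjusted p under 0.05 in ACLP-NT against saline, 1 panel per gene with an axis from 0, each point 1 library and bars the mean ± SD per treatment. Cd68 spans 39 to 48.5 CPM in saline and 22.6 to 38.5 CPM in ACLP-NT, and in most panels the ACLP-NT points split into 2 low and 3 higher libraries.

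The 8 members lower in ACLP-NT had differences of -0.44 to -0.17 there and of -0.37 to -0.14 in Aducanumab, and between the treatments of -0.13 to -0.01. Their values against saline were what chose them in the first comparison and share the saline libraries in the second. Between the treatments the values were Lgmn -0.10, Hexa -0.09, Gusb -0.10, Man2b1 -0.09, Naglu -0.13, Pla2g15 -0.01, Cd68 -0.06 and Laptm5 -0.12, each smaller than 1.5 times its SE and with edgeR adjusted p = 1. The signs of Pla2g15 and Cd68 turned when single libraries were left out. The remaining 22 members ran from -0.17 to 0.05 in ACLP-NT, with 16 below saline and 6 above, and from -0.12 to 0.10 in Aducanumab, with 12 below and 10 above. The members with and without TCACGTG in their window are given side by side, with no test of their difference. Of 7 members with the letters, 2 were among the 8 and the median log2 fold change in ACLP-NT was -0.12, and of 20 members with a window but without the letters, 6 were among the 8 and the median was -0.09.

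How the members varied between animals of the same treatment was set against 3 marker scores (microglia, choroid plexus and meningeal fibroblasts). Group means were removed, which takes out mean differences between treatments. Differences in response between animals of 1 treatment would remain. Over 90 relations, 13 libraries each, p-values came from 100000 permutations within groups and were adjusted over the 90. These relations were computed for the 30 members alone, so no share over all genes stands beside the counts for any of the 3 scores. With the microglia score, 27 of 30 members had a positive Pearson r, and 6 passed the adjusted threshold of 0.05. Hexa had r = 0.979 (Spearman rho 0.879, permutation p = 0.0002, adjusted 0.0063), Cd68 r = 0.967 (rho 0.945, permutation p = 0.00018, adjusted 0.0063) and Gusb r = 0.935 (rho 0.912, adjusted permutation p = 0.02). Laptm5 followed with r = 0.9 (rho 0.896, adjusted permutation p = 0.0063), Pla2g15 with 0.863 (rho 0.868, adjusted permutation p = 0.0378) and Lgmn with 0.789 (rho 0.676, adjusted permutation p = 0.0378), where the rank correlation of Lgmn did not pass (adjusted permutation p = 0.197). ACLP-NT 27 and 53 had the lowest microglia scores, -0.34 and -0.30. Without these 2 libraries r was 0.975 for Hexa, 0.902 for Cd68, 0.86 for Gusb, 0.808 for Pla2g15, 0.73 for Laptm5 and 0.602 for Lgmn.

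All 6 are among the 8 transcripts lower in ACLP-NT, and the other 2, Man2b1 and Naglu, had r = 0.786 and 0.656 with adjusted permutation p-values of 0.0639 and 0.0891. Over the 8, r with the microglia score ran from 0.656 to 0.979, and over the remaining 22 from -0.471 to 0.765. The lowest of the 22 was Arsa, with a permutation p of 0.0588 before adjustment. At their upper end, Asah1 (r = 0.765, adjusted permutation p = 0.0639), Npc2 (r = 0.697, adjusted 0.0536) and Ppt1 (r = 0.695, adjusted 0.16) lay above Naglu. The ranges of the 8 and the 22 thus overlapped. Lysosomal transcripts are themselves made by microglia, and the points share library and depth, so these values describe variation in step and not its source.

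With the choroid plexus score a different pair of members passed. Gm2a had r = 0.853 (rho 0.89, adjusted permutation p = 0.0256) and Cd63 r = 0.795 (rho 0.819, adjusted permutation p = 0.0378). Smpd1 (r = 0.795, adjusted permutation p = 0.0536), Lamp2 (r = 0.747, adjusted permutation p = 0.0639) and Tpp1 (r = 0.724, adjusted permutation p = 0.0639) did not pass. By rank correlation Tpp1 did pass (rho 0.835, adjusted permutation p = 0.0218). Without saline 18 and Aducanumab 50, the farthest from the median of the score as measured, r was 0.805 for Gm2a and 0.75 for Cd63. Without ACLP-NT 55 and Aducanumab 50, the farthest once group means were removed, it was 0.861 and 0.776. The score left a gap between 4 libraries at -3.18 to -2.62 and 9 libraries at -0.69 to 2.31, a split chosen after the scores were seen. Within the 9 libraries r was 0.845 for Gm2a, 0.882 for Cd63, 0.925 for Smpd1, 0.868 for Lamp2 and 0.675 for Tpp1. Lipa (0.809) and Glb1 (0.687) also lay above Tpp1 there, and neither passed over all 13 libraries (r = 0.712 and 0.632). The values within the 9 rest on few libraries per group and were not tested. The 8 transcripts lower in ACLP-NT had r of -0.193 to 0.545 with this score over all 13 libraries, and none passed. Within the 9 libraries they ran from 0.098 for Gusb to 0.632 for Naglu. With the meningeal fibroblast score no member passed. Closest were Tpp1 (r = 0.775, adjusted permutation p = 0.0639), above its r with choroid plexus, and Laptm4a (r = 0.761, adjusted permutation p = 0.0728). Without ACLP-NT 55 and Aducanumab 58, the farthest from the median of this score, r was 0.454 for Tpp1 and 0.458 for Laptm4a. Between the scores themselves, r was -0.01 for microglia and choroid plexus and 0.647 for choroid plexus and meningeal fibroblasts.

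**Figure D4:**
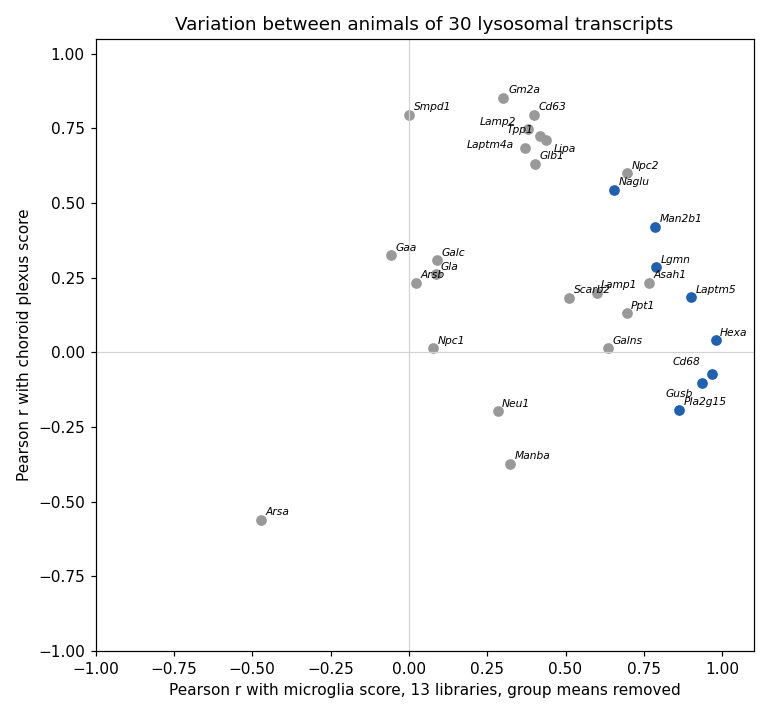
Pearson r of each member with the microglia score (horizontal axis) and with the choroid plexus score (vertical axis) over 13 libraries with group means removed, the 8 members of unadjusted p under 0.05 in ACLP-NT against saline in blue and the others in grey. The blue points lie at 0.656 to 0.979 on the horizontal axis and the grey points at -0.471 to 0.765. Gm2a, Cd63, Smpd1 and Lamp2 lie at 0.747 to 0.853 on the vertical one.

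**Figure D5:**
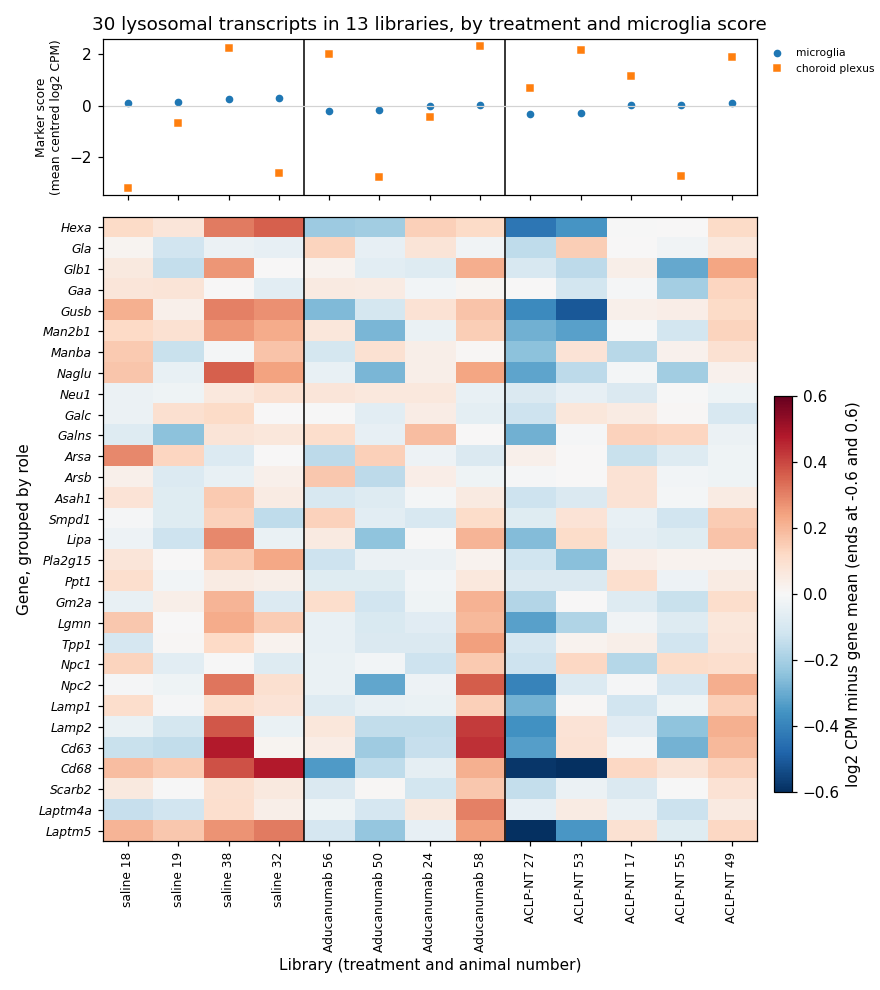
Log2 CPM of the 30 members minus each gene's mean (colour, ends at -0.6 and 0.6) in 13 libraries grouped by treatment and, within it, ordered by microglia score, with the microglia and choroid plexus scores above. ACLP-NT 27 is the lowest library in 17 members, and Lamp2 and Cd63 stand out as high in saline 38 and Aducanumab 58, where the choroid plexus scores are 2.24 and 2.31.

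Other lysosomal genes were listed by role, 89 in all and each tested. None passed the adjusted threshold in any comparison with edgeR, and DESeq2 called 1 of them, Grn, in Aducanumab against saline (adjusted p = 0.0486). By unadjusted p, 9 of 89 were lower (3.43% of all genes) and 1 higher (2.46%) in ACLP-NT against saline, with 57 below 0 (50.6% of all genes) and a median log2 fold change of -0.03. In Aducanumab 3 of 89 were lower (2.62% of all genes) and 0 higher (2.07%), with 51 below 0 (48.7%) and a median of -0.02, which is near the background. Between the treatments 0 were lower (1.71% of all genes) and 1 higher (1.53%), with 53 below 0 (52.4%) and a median of -0.02. In ACLP-NT all 11 cathepsins, the lysosomal proteases, lay below saline with a median of -0.23, and 4 of them had an unadjusted p under 0.05. With Aducanumab 9 cathepsins lay below saline and 2 above, with a median of -0.16, and 1 was lower by unadjusted p. The 19 subunits of the V-ATPase, the proton pump that acidifies the lysosome, had a median of -0.01 in ACLP-NT with 11 below 0. Their median with Aducanumab was 0.01, with 9 below 0. The 11 genes of sorting and delivery had medians of 0.0044 in ACLP-NT and 0.0041 with Aducanumab, and the 10 regulators of -0.03 and -0.02.

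Of 8 such genes given here by name, Grn, the precursor of lysosomal granulins, lay wholly below saline in both treatments: 133, 134, 140 and 143 CPM in saline, 117, 92.3, 99.2 and 114 in Aducanumab and 112, 94.6, 127, 96.7 and 107 in ACLP-NT. Its log2 fold changes were -0.36 in ACLP-NT (SE 0.0857, unadjusted p = 0.001, edgeR adjusted p = 0.722) and -0.38 in Aducanumab (SE 0.0908, unadjusted p = 0.000892, edgeR adjusted p = 0.833). The protease Ctsb had differences of -0.23 (SE 0.0723, unadjusted p = 0.00707) and -0.17 (SE 0.0764, unadjusted p = 0.0396), and the protease Ctsd, at 1286 ± 203 CPM (SD, n = 4) in saline, had -0.33 (SE 0.157) and -0.29 (SE 0.166).

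Tcirg1, a V-ATPase subunit of osteoclasts and macrophages, had log2 fold changes of -0.27 (SE 0.109, unadjusted p = 0.0266) and -0.22 (SE 0.116), and the calcium channel Mcoln1 of -0.12 (SE 0.0466, unadjusted p = 0.0199) and -0.09 (SE 0.0492). The saposin precursor Psap measured -0.04 (SE 0.0685) and 0.0038 (SE 0.0723), the mannose 6-phosphate receptor Igf2r 0.02 (SE 0.0977) and 0.06 (SE 0.103), and Tfeb itself -0.08 (SE 0.118) and 0.0029 (SE 0.124). These last 3 lay within 1 SE of saline in both treatments, and leaving out single libraries turned a sign in each of them. Between the treatments the log2 differences were Ctsd -0.04, Ctsb -0.05, Grn 0.03, Psap -0.04, Mcoln1 -0.04, Igf2r -0.04, Tcirg1 -0.05 and Tfeb -0.09, with edgeR adjusted p = 1 for each.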

How the data were processed

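Bulk mRNA of hippocampus from 13 libraries was analysed from 1 deposited table. Per the file headers it gives FPKM, which the authors computed per gene length and library size, and raw counts, which the authors deposited without scaling. Per the submitters' processing notes, the tools were StringTie 1.3.4d, HISAT2 2.0.4, cutadapt 1.9 and a version of edgeR that is not named. The sources used here give no genome build, annotation or counter. No row lacked a gene identifier (0 rows), and 0 columns belonged to other samples.

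Counts were filtered (filterByExpr, 22065 genes), scaled by TMM and tested with the edgeR 4.0.16 quasi-likelihood test (two-sided, R 4.3.3) with 3 groups in 1 fit. P-values were adjusted by Benjamini-Hochberg over all genes, with a threshold of 0.05. The SE was taken as |log2 fold change| over the square root of F, and the common biological coefficient of variation came to 0.226. Levels between genes are in FPKM and levels between libraries in CPM. Marker scores used log2 CPM with a prior count of 2, and permutations used numpy 2.4.6. The labels number the animals and say no more of their handling, so p-values measure only the spread between these samples. Replicates all differed by more than counting noise (smallest chi-square per df 13.5).

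The members and gene lists were chosen with earlier results of these data known. The rule gave values per library for members with an unadjusted p under 0.05 or with groups that do not overlap, and for the 3 highest and 3 lowest in FPKM, and it named other lysosomal genes, of which 8 are given and 1 is not reported here. Other genes are named as extremes of their role, chosen after their values were seen. RefSeq promoters (GRCm38.p6) were matched by symbol. Alternatives were other scalings and filters, a robust fit, the 2 groups alone, DESeq2 1.42.0, limma 3.58.1 on log2 FPKM plus 1 or 0.1, the choroid plexus score as covariate, and each library left out.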

Additional observations from a re-analysis of the deposited data

Results flagged for a closer look

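Each member was checked in each group for 1 library far from the rest by Dixon's criterion. Of 90 groups, 6 had such a library, which is close to the 1 in 20 that chance gives. The 90 checks were not independent, because 1 library can shift many members at once. Aducanumab 58 accounted for 4 of these: Lgmn at 145 CPM with the other 3 Aducanumab libraries at 119 to 123, Tpp1 at 131 CPM with the others at 104 to 107, Lamp1 at 383 CPM with the others at 328 to 337, and, lowest in its group, Neu1 at 51.6 CPM with the others at 55.6 to 56. Lamp2 was at 152 CPM in saline 38 with the other saline libraries at 109 to 114. Arsb was at 162 CPM in ACLP-NT 17 with the other ACLP-NT libraries at 150 to 153. Aducanumab 58 also had the highest scores for choroid plexus (2.31), meningeal fibroblasts (1.35), border macrophages (1.22) and blood (1.12). Saline 38 had the next choroid plexus score (2.24). Aducanumab 56, among the other Aducanumab libraries above, had a choroid plexus score of 2.0007. With this score and group means removed, r was 0.747 for Lamp2, 0.724 for Tpp1 and 0.285 for Lgmn. It was 0.233 for Arsb, 0.199 for Lamp1 and -0.197 for Neu1. With the meningeal fibroblast score, r was 0.627 for Lamp2, 0.775 for Tpp1 and 0.274 for Lgmn. For Arsb, Lamp1 and Neu1 that r was -0.427, 0.314 and -0.421. The part of these scores in the flagged values was not tested.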

How the results depend on the processing

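The count of members past the adjusted threshold was 0 in each comparison under every alternative and with each library left out. Over all genes, DESeq2 called 12 in ACLP-NT against saline, 19 in Aducanumab against saline and 3 in ACLP-NT against Aducanumab, where edgeR called 0. The 19 include Grn (DESeq2 adjusted p = 0.0486). With single libraries left out, edgeR called 0 to 1 gene in each comparison. The median over members kept its sign throughout. The count of members lower by unadjusted p, a count chosen after seeing the data, was 5 to 9 with single libraries left out and 12 with the choroid plexus covariate in ACLP-NT against saline. In Aducanumab against saline it was 0 to 7, with 6 when only the 2 groups were fitted, 4 under DESeq2 and 2 with the covariate, and in ACLP-NT against Aducanumab it was at most 1.

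Among the genes named with a fold change, signs turned for the following. With single libraries left out, ACLP-NT against saline ranged over -0.0322 to 0.0494 for Laptm4a, -0.0323 to 0.0618 for Igf2r and -0.0634 to 0.0156 for Psap. Aducanumab against saline ranged over -0.0257 to 0.0191 for Gaa, -0.037 to 0.0529 for Psap, -0.1024 to 0.0922 for Tfeb, -0.0006 to 0.1459 for Igf2r and -0.097 to 0.0035 for Manba. ACLP-NT against Aducanumab ranged over -0.0375 to 0.0785 for Grn, -0.1254 to 0.0226 for Igf2r, -0.0366 to 0.0372 for Pla2g15, -0.1403 to 0.0482 for Cd68, -0.129 to 0.0766 for Ctsd, -0.0824 to 0.003 for Psap, -0.1215 to 0.0511 for Tcirg1 and -0.1744 to 0.0219 for Tfeb. With the choroid plexus covariate, Laptm4a was at -0.0615 and Igf2r at -0.0693 in ACLP-NT, and Gaa was at -0.0159, Psap at -0.0517, Igf2r at -0.0124 and Tfeb at -0.0604 in Aducanumab. In Aducanumab against saline, Gaa, Psap and Tfeb were at -0.0032, -0.0006 and -0.0016 without a filter and at -0.0029, -0.0007 and -0.0022 under DESeq2, and Tfeb at -0.0034 on log2 FPKM plus 0.1. The cause was not tested. For the correlations, RLE scaling moved r by at most 0.035 and log2 FPKM by at most 0.202. No paired analysis was possible because no animal number occurs in more than 1 group.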
